A study of Mus musculus with 19 samples.

Results

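The genes examined here are 37 genes of the early secretory pathway of the endoplasmic reticulum (ER): the machinery that moves new proteins across the ER membrane, the chaperones and disulfide enzymes that fold them, the degradation machinery and the factors of the unfolded protein response. They were chosen by name, with earlier results of these data known, and all 37 were found among the 52636 gene identifiers of the count table. They were followed in single cells of the lateral hypothalamic area (LHA), which takes part in feeding and arousal. The cells came from 7 mice, all male, of the cross Agrp-IRES-Cre x Ai9 and between 6 and 8 weeks of age. Cells without fluorescence were picked by hand into 19 plates of 96 wells, and the red axons of AGRP neurons served only to outline the area. No treatment was given, so all cells share genotype, sex and age. Of 1612 wells labelled LHA, 1534 had at least 1000 genes detected and were kept.

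Wells were classed by their own peptide messenger RNA. A Pmch neuron gave at least 1% of its counts to Pmch, the precursor of melanin-concentrating hormone (68 wells). A Hcrt neuron gave at least 1% to Hcrt, the precursor of the orexin or hypocretin peptides (1065 wells). Wells under 1% of both are called neither (398 wells), and 3 wells at or above 1% of both were left out. The median peptide share was 17.7% for Pmch in Pmch neurons and 13.5% for Hcrt in Hcrt neurons. Near the gates, 6 wells held 1 to 2% Hcrt and 44 held 0.5 to 1%, against 0 and 1 wells for Pmch. Of the 398 neither wells, 187 held at least 0.2% of Hcrt or Pmch, and the median Hcrt share of the class was 0.189%. A UMI (unique molecular identifier, counted here as 1 molecule) of Slc17a6, the vesicular glutamate transporter, was seen in 70.6% of Pmch, 88.5% of Hcrt and 17.8% of neither wells, and of Slc32a1, the vesicular GABA transporter, in 1.47%, 2.44% and 51.8%. Gad2, a GABA-synthesis enzyme, had a UMI in 7.35%, 18.9% and 82.9% of them, so the classes differed in transmitter genes as well as in peptide.

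Neuropeptides are made as precursors that enter the ER through the Sec61 channel, assisted by the translocon-associated protein (TRAP) complex, and lose their signal sequence to the signal peptidase. The Hsp70 chaperone BiP, encoded by Hspa5, and its J-domain cofactors then fold them, and protein disulfide isomerases form their disulfide bonds. Misfolded chains are sent back to the cytosol for degradation. When unfolded protein builds up, the sensors IRE1, PERK and ATF6 act through XBP1, ATF4 and the cleaved form of ATF6 on the promoters of many of these genes.

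A known entry point for that response is the ER stress response element (ERSE), a CCAAT box that is bound by NF-Y, then 9 spacer bases and a CCACG end that is bound by ATF6 or XBP1. RefSeq promoter windows of GRCm38.p6, 250 bases before to 50 after the gene start, were on hand for 30 of the 37 genes and were searched on both strands. Atf6, Derl1, Hyou1, Manf, Sec61a1, Spcs3 and Ssr2 were not analysed here for motifs. The letters CCAAT and CCACG with 9 bases between them occurred in 8 of the 30 windows (26.7%), against 37 of 27025 genes with a window (0.137%). The shorter form ERSE-II, ATTGG and CCACG with 1 base between them, occurred in 2 of the 30 (6.67%), against 12 of all genes (0.0444%). Both contain the letters CCACG, which alone was found in 35.5% of all genes. The counts over all genes include the members. Many members are known targets of that response, so a higher share of the element among them is no independent finding, and it was not tested. The letters TGACGTGG, the core of the XBP1 element, and TGACGTCA, the cyclic AMP element, were in 0 of the 30 windows, and in 0.714% and 2.03% of all genes. The following stretches show the element in each of these promoters, because they mark which members carry it in the window; the strand is that of the gene, capitals mark the element, and in Calr and Creld2 it reads in the reverse direction.
Hspa5 (chr2:34772005-34772063, plus strand): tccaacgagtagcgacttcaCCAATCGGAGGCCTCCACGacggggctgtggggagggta
Hsp90b1 (chr10:86705618-86705676, minus strand): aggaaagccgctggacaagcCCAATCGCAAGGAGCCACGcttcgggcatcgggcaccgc
Pdia6 (chr12:17266471-17266529, plus strand): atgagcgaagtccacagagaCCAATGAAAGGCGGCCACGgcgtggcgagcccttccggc
Calr (chr8:84847055-84847113, minus strand): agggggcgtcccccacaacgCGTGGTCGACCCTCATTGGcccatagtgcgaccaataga
Canx (chr11:50325780-50325838, minus strand): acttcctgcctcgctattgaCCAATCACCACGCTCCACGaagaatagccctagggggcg
Creld2 (chr15:88819500-88819558, plus strand): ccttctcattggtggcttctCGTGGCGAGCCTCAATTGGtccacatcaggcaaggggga
Dnajc3 (chr14:118937807-118937865, plus strand): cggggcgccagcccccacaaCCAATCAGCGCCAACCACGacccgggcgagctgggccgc
Syvn1 (chr19:6046512-6046570, plus strand): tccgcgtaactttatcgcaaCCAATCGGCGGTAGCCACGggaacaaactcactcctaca
Dnajb11 (chr16:22857828-22857886, plus strand): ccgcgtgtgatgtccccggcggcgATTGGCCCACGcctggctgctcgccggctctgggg
Herpud1 (chr8:94386353-94386411, plus strand): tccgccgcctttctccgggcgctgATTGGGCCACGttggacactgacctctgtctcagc
The first 8 lines hold ERSE and the last 2 hold ERSE-II. In Hspa5 the element began 65 bases before the RefSeq start that sets its window, a start that lies inside the longer interval given for the gene with its levels, and Hsp90b1 held 2 copies, of which the one farther from the start is shown.

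Levels are counts summed per plate and class, as CPM over the counts of all mouse genes other than Hcrt and Pmch, so that the peptide message itself does not lower every other gene. Pmch neurons are given for the 13 plates with at least 3 such wells (61 wells), Hcrt neurons for all 19 plates (1065 wells) and neither wells for 17 plates (394 wells). Plate sums of the 37 genes ran from 8679 to 11588 CPM with a median of 10104 in Pmch neurons, from 7075 to 7817 with a median of 7424 in Hcrt neurons, and from 5323 to 7768 with a median of 6086 in neither wells. The Pmch range lay above both others, while those of Hcrt and neither wells overlapped.

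Each comparison was made with edgeR's quasi-likelihood test on plates that held both classes, with the plate as a block and Benjamini-Hochberg adjustment over all genes tested. Fold changes are log2 values ± SE. Pmch against neither wells could be compared on 13 plates (61 against 254 wells). There 20 of 31 tested members were higher (64.5%), where 14.3% of all 4841 tested genes were higher, and 1 was lower (3.23%), where 19.5% of all genes were. Hcrt against neither wells, on 17 plates (907 against 394 wells), gave 13 of 35 members higher (37.1%; 13.3% of all 9663 genes) and 4 lower (11.4%; 27.9%). Pmch against Hcrt neurons, on 13 plates (61 against 756 wells), gave 18 of 33 higher (54.5%; 14.3% of all 7760 genes) and 1 lower (3.03%; 16%). The median change of the tested members was 0.72, 0.26 and 0.44 in these comparisons, against -0.11, -0.17 and -0.08 for all genes tested. The 3 comparisons share classes, so they are set side by side and are not independent of each other. Ern1 and Eif2ak3 had too few counts for any of these tests. Sec61g, Hyou1, Edem1 and Atf6 were also untested in Pmch against neither wells, and Edem1 and Atf6 in Pmch against Hcrt neurons.

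**Figure D1:**
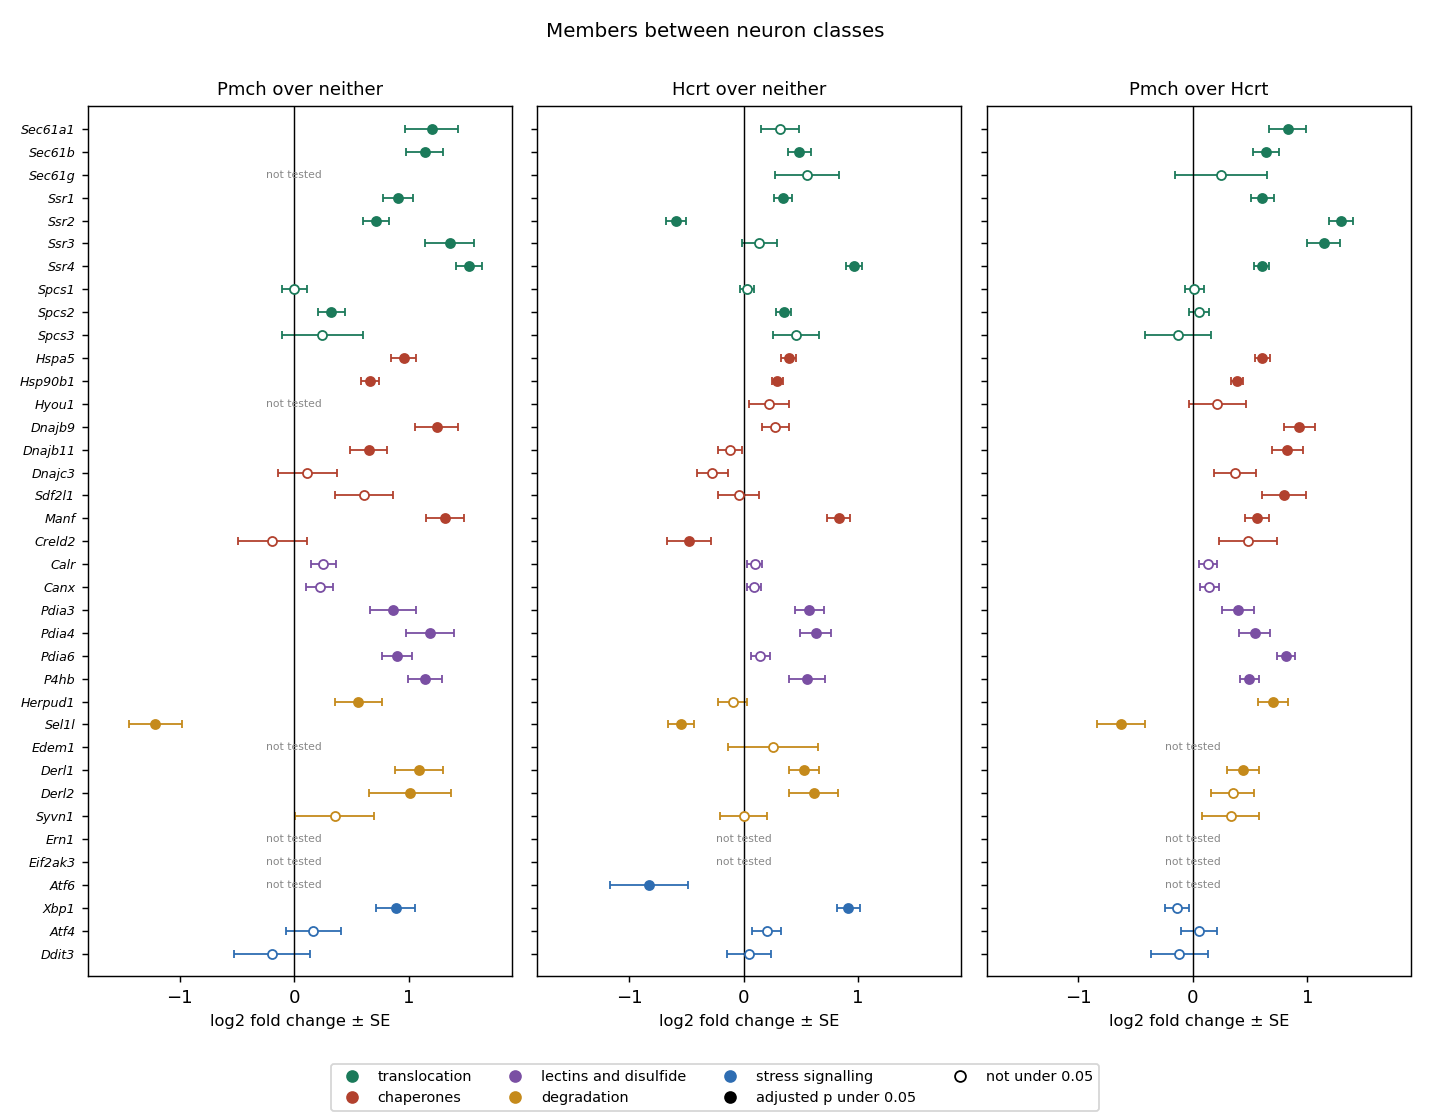
Log2 fold change with its standard error (horizontal axis) for each of the 37 genes (rows, by role), in Pmch over neither wells, Hcrt over neither wells and Pmch over Hcrt neurons; filled points passed an adjusted p of 0.05. Most translocation, chaperone and disulfide genes lie right of 0 in the left and right panels, while Sel1l lies left of 0 in all 3 and Ssr2 changes side between the left and middle panels.

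The size of the Hcrt shift depends on the scaling. With TMM factors, which centre on the bulk of genes, the median of all genes moved by 0.22 on the log2 scale. Of 35 tested members, 23 were then higher and 2 lower in Hcrt than in neither wells. Of all genes, 22.5% were then higher and 16.1% lower. The share of higher genes among all calls was 58.3% with TMM, 49.8% with DESeq2 and 32.2% in the scaling used here. With Hcrt and Pmch kept in the totals, 8 of 34 tested members were higher and 8 lower. Of all genes, 8.43% were then higher and 44.5% lower, and 15.9% of all calls were higher. In Pmch against neither wells, totals with the peptides moved the median of all genes by -0.27 and gave 16 of 32 members higher and 2 lower. Of all genes, 8.9% were then higher and 38.5% lower. The share of higher genes among all calls was 18.8%, against 42.3% in the scaling used here. No member called in the scaling used here changed sign under TMM, DESeq2's factors or totals with the peptides or without mitochondrial genes. Pmch against Hcrt neurons was little moved, with 17 or 18 members higher under each of these, where 12.4% to 14.3% of all genes were higher. With the neither class limited to its glutamate gate (at least 2 UMIs of Slc17a6, with Slc32a1 at most 20% of both; added after the data were seen), 16 of 27 members were higher in Pmch and 7 of 32 in Hcrt than in neither wells, and none was lower, where 7.75% and 6.01% of all genes were higher and 3.74% and 4.51% lower; those 7 were Sec61b, Ssr4, Manf, Pdia4, P4hb, Derl2 and Xbp1. Cells of the classes differed in depth as well: the plate median of UMIs without the peptides averaged 56760 in Pmch against 23904 in neither wells (higher on 13 of 13 plates, permutation p = 0.00018), 45959 in Hcrt against 25544 in neither wells (17 of 17, p = 3e-05) and 56760 in Pmch against 40892 in Hcrt neurons (12 of 13, p = 0.00261; 100000 two-sided sign permutations each). The share of mitochondrial counts ran the other way, at 1.60% in Pmch against 3.17% in neither wells (higher on 0 of 13 plates), 2.40% in Hcrt against 3.13% in neither wells (0 of 17) and 1.60% in Pmch against 2.41% in Hcrt neurons (0 of 13), as did the ERCC spike-in share at 1.91% against 5.37%, 2.93% against 5.95% and 1.91% against 2.83%. Immediate early genes, by the same plate mean of well medians, had 650 CPM in Hcrt against 272 CPM in neither wells (17 of 17) and 314 CPM in Pmch against 638 CPM in Hcrt neurons (1 of 13), with 314 CPM in Pmch against 291 CPM in neither wells (6 of 13). Non-neuronal markers, by that mean of medians, had 62.6 CPM in Hcrt against 82.2 CPM in neither wells (7 of 17) and 76.9 CPM in Pmch against 89.6 CPM in neither wells (5 of 13). Pmch against Hcrt neurons gave 76.9 against 63.8 CPM (7 of 13). The tests use summed counts, which differed more. Oligodendrocyte markers pooled over wells held 464 CPM in Hcrt, 39.4 CPM in Pmch and 410 CPM in neither wells. The change of Mbp in Pmch over Hcrt neurons was -5.42 ± 0.41 (edgeR, adjusted p = 5.06e-14). The part of these measures in the class differences was not tested, apart from depth. For depth, wells with at least 16000 UMIs were thinned to 16000. Shallower wells were left out, which were 63 Hcrt, 0 Pmch and 68 neither wells. On the 12 plates that remained (53 against 214 wells), 14 of 17 tested members were higher in Pmch than in neither wells. Of all 1699 tested genes, 340 were higher. The 14 members were 13 of the earlier calls and Calr, while Herpud1 was lost (adjusted p = 0.492). Sec61a1, Ssr3, Pdia3, Pdia4, Derl1, Derl2 and Sel1l had too few counts to test. Thinned wells gave 11 of 32 members higher in Hcrt than in neither wells (13.3% of all genes), without P4hb and Derl2, and 15 of 32 in Pmch than in Hcrt neurons (15.7% of all genes), without Pdia3, Pdia4 and Derl1. Kept wells per plate summed to between 1835641 and 5067927 UMIs. The labels do not say which mouse a plate came from, and p-values that treat plates as replicates may therefore be too small. Of the kept wells, 0 of 68 Pmch, 16 of 1065 Hcrt and 11 of 398 neither wells failed a neuron gate of marker genes and depth.

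Other settings ended or added calls, so that passing or not passing refers to the scaling and classes used here unless another is named. In Pmch over neither wells, 13 of the 21 calls held under every alternative in which the gene could be tested. Totals with the peptides ended those of Spcs2, Dnajb11, Herpud1 and Derl2 (adjusted p = 0.0519 to 0.73), and the glutamate gate those of Sec61a1, Spcs2, Pdia3, Sel1l and Derl1 (adjusted p = 0.0687 to 0.185). Gates at 0.2%, or neither wells under 0.2% of both peptides, ended those of Sec61a1, Dnajb11, Pdia3, Sel1l and Derl2 in at least 1 of these settings (adjusted p = 0.0569 to 0.286), and the GABA gate those of Herpud1 and Derl2 (adjusted p = 0.767 and 0.228). Both settings at 0.2% left 6 plates, the glutamate gate 7 and the GABA gate 9, against 13. The median change of the members tested was 0.96 with gates at 0.2% and 0.98 with neither wells under 0.2%. It was 1.00 with the glutamate gate and 1.00 with the GABA gate, against 0.72 in the main setting. The part of the smaller number of plates in the lost calls was not tested. In Hcrt over neither wells, 5 of the 17 calls held throughout, those of Sec61b, Ssr4, Manf, Pdia4 and Xbp1. Totals with the peptides ended the calls of Ssr1, Spcs2, Hsp90b1, P4hb and Derl2 (adjusted p = 0.0546 to 0.132), and Spcs1, Dnajb11, Dnajc3 and Herpud1 were then lower (adjusted p = 0.00317 to 0.0499). The settings at 0.2% ended those of Creld2, Sel1l, Derl1, Derl2 and Atf6 (adjusted p = 0.0523 to 0.81), and TMM and DESeq2 those of Creld2 and Atf6 (adjusted p = 0.087 to 0.307). Both settings at 0.2% and the glutamate gate left 10 plates in this comparison, against 17. TMM and DESeq2 each added Sec61a1, Sec61g, Spcs1, Spcs3, Hyou1, Dnajb9, Calr, Canx, Pdia6 and Atf4 as higher in Hcrt neurons (adjusted p = 9.34e-05 to 0.0421), and Sdf2l1 and Calr as higher in Pmch than in neither wells (adjusted p = 0.0192 to 0.0357). In Pmch over Hcrt neurons 14 of the 19 calls held throughout, and those of Sdf2l1, Pdia3, Pdia4, Sel1l and Derl1 were lost under at least 1 alternative.

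Of the 3 Sec61 channel genes, Sec61a1 and Sec61b were higher in Pmch neurons than in both other classes, and Sec61b was also higher in Hcrt than in neither wells. Sec61b, the beta subunit of the channel, had a lowest, median and highest plate value of 82.9, 278 and 465 CPM in Pmch neurons, 127, 175 and 274 CPM in Hcrt neurons and 52.8, 125 and 239.9 CPM in neither wells. The 3 ranges overlapped, and the lowest Pmch value was that of plate 4 alone. Its log2 change was 1.14 ± 0.16 in Pmch and 0.49 ± 0.1 in Hcrt over neither wells (adjusted p = 6.54e-07 and 8.24e-05), and 0.64 ± 0.11 in Pmch over Hcrt neurons (adjusted p = 2.08e-05). Sec61a1, the pore subunit, ran at 66.8, 112.03 and 193 CPM in Pmch neurons, 43.7, 71.9 and 98.4 CPM in Hcrt neurons and 0, 55.0 and 89.3 CPM in neither wells. The ranges overlapped, and Pmch exceeded Hcrt on 13 of 13 plates. It was higher in Pmch than in neither wells by 1.20 ± 0.23 and than in Hcrt neurons by 0.83 ± 0.16 (adjusted p = 9.16e-05 and 7.88e-05). Hcrt over neither wells gave 0.32 ± 0.17, which did not pass (adjusted p = 0.129) but did with plate 17 left out (adjusted p = 0.0476). Sec61g, the gamma subunit, passed no test, and its counts are uncertain: the pseudogene Gm10177 matches it over 420 bases at 100% and took 1571 counts against 964 for Sec61g itself.

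The 4 TRAP subunits did not move as 1 unit. Ssr4 (TRAP delta; chromosome X, 73787028 to 73790830, GRCm38) had 567, 902 and 1138 CPM (lowest, median and highest plate) in Pmch neurons, 435, 617 and 701 CPM in Hcrt neurons and 234, 298 and 496 CPM in neither wells. Every Pmch plate lay above every neither plate, which held for 1.80% of all genes tested (2.75% with either class on top). In Hcrt over neither wells 0 of 35 members had plate ranges that did not overlap, as did 2.83% of all genes (1.32% with every Hcrt plate above). Ssr4 had the largest change of the tested members over neither wells, 1.53 ± 0.11 in Pmch and 0.96 ± 0.069 in Hcrt neurons (adjusted p = 3.19e-13 and 5.28e-16), higher on 13 of 13 plates and 17 of 17 plates. Pmch over Hcrt neurons gave 0.60 ± 0.068 (adjusted p = 2.45e-09). Ssr2 (TRAP beta; chromosome 3, 88575876 to 88588419) had 259.8, 496 and 711 CPM in Pmch neurons, 164, 196 and 253 CPM in Hcrt neurons and 166, 286 and 413 CPM in neither wells. It was lowest in Hcrt neurons: every Pmch plate stood above every Hcrt plate, which held for 2.28% of all genes (5.06% with either class on top), while Hcrt and neither plates overlapped. The changes were 0.72 ± 0.12 in Pmch over neither wells (adjusted p = 5.84e-06), -0.59 ± 0.085 in Hcrt over neither wells (adjusted p = 1.3e-07, lower on 16 of 17 plates) and 1.29 ± 0.1 in Pmch over Hcrt neurons (adjusted p = 1.32e-13).

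Because 2 genes of the same libraries need no scaling, the ratio of Ssr4 to Ssr2 UMIs was also taken per plate, a measure chosen after their values were seen. Its lowest, median and highest plate values were 0.867, 1.89 and 3.86 in Pmch neurons, 1.93, 2.92 and 4.03 in Hcrt neurons and 0.635, 1.03 and 1.67 in neither wells. The ratio was higher in Hcrt than in neither wells on 17 of 17 plates, and the ranges did not overlap. Ssr4 was called higher and Ssr2 lower in that comparison, so the separation restates these changes and is no further support for them. Other gene pairs, and neither wells of the glutamate gate, were not examined this way. The ratio was higher in Pmch than in neither wells on 11 of 13 plates and higher in Pmch than in Hcrt neurons on 0 of 13. The Ssr2 difference between Hcrt and neither wells depended on which neither wells were taken, an alternative chosen after the values were seen. Against the 49 neither wells of the glutamate gate, the Hcrt change was 0.18 (adjusted p = 0.702), and against the 119 wells of the matching GABA gate it was -0.55 (adjusted p = 0.000637). Ssr2 shares 239 exonic bases with Gm10704 on the other strand, which had 608 UMIs in Hcrt and 168 in neither wells beside 7967 and 3330 for Ssr2; the use of strand in counting is not given in the sources used here.

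Ssr3 (TRAP gamma) ran at 103.3, 199 and 294 CPM in Pmch neurons, 38.4, 78.0 and 102.05 CPM in Hcrt neurons and 7.55, 67.2 and 146 CPM in neither wells. All Pmch plates lay above all Hcrt plates, and the Hcrt range lay within the neither range. Ssr3 was higher in Pmch than in neither wells by 1.36 ± 0.21 (adjusted p = 3.37e-06) and than in Hcrt neurons by 1.14 ± 0.14 (adjusted p = 2.5e-08), with 0.14 ± 0.15 in Hcrt over neither wells (adjusted p = 0.512). Ssr1 (TRAP alpha) held 173, 326 and 426 CPM, 175, 200.5 and 244 CPM and 127, 164 and 193 CPM in Pmch, Hcrt and neither wells. The class ranges overlapped, and Hcrt exceeded neither wells on 17 of 17 plates. Ssr1 was higher in every comparison, by 0.91 ± 0.13, 0.34 ± 0.078 and 0.61 ± 0.1 in Pmch over neither, Hcrt over neither and Pmch over Hcrt (adjusted p = 1.24e-06, 0.000358 and 4.94e-06). The signal peptidase genes among the members, Spcs1, Spcs2 and Spcs3, changed in Pmch over Hcrt neurons by 0.011 ± 0.083, 0.053 ± 0.084 and -0.13 ± 0.29, and none passed. Sec11a and Sec11c, signal peptidase genes that are not members, come from the list of other targeting and translocation genes. Both were higher in Pmch than in Hcrt neurons, by 0.54 ± 0.14 and 1.04 ± 0.072 (adjusted p = 0.00175 and 3.23e-15). Over neither wells their Pmch changes were 0.82 ± 0.18 and 1.27 ± 0.12 (adjusted p = 0.000382 and 4.31e-11). Spcs2 was higher than in neither wells in both peptide classes (0.32 ± 0.12 in Pmch and 0.35 ± 0.064 in Hcrt neurons; adjusted p = 0.0326 and 1.61e-05). Its Pmch call was lost without plate 4, 5, 8, 18 or 19, with adjusted p-values up to 0.101.

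**Figure D2:**
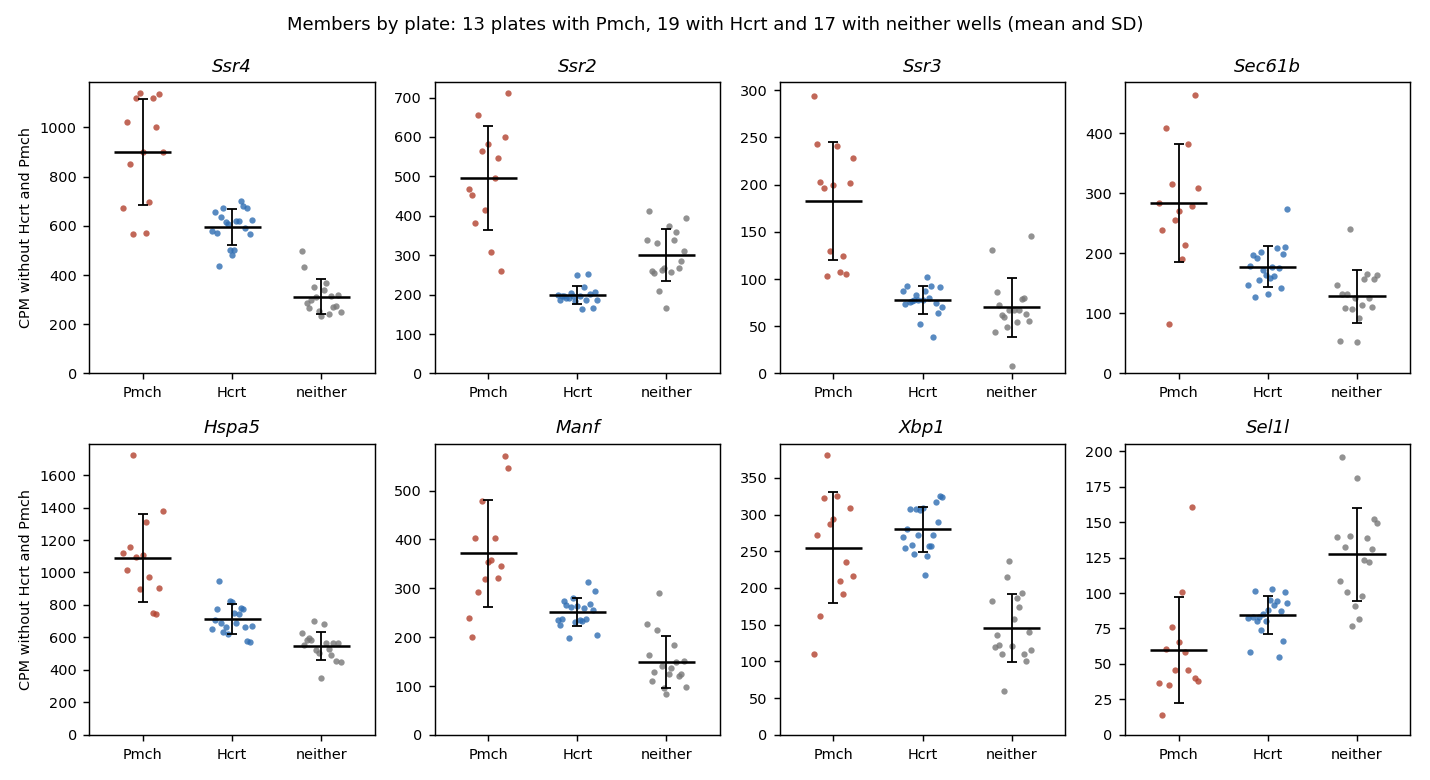
CPM per plate (vertical axis; 1 point per plate, bar and whisker for mean and SD) of 8 members in Pmch, Hcrt and neither wells. Ssr4, Hspa5, Manf and Sec61b step down from Pmch over Hcrt to neither wells, Ssr2 is lowest in Hcrt neurons, Xbp1 is at a like level in both peptide classes, and Sel1l runs the opposite way.

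Among the chaperones, Hspa5 (BiP; chromosome 2, 34771970 to 34777547) showed lowest, median and highest plate values of 742, 1092 and 1724 CPM in Pmch neurons, 569, 691 and 949.9 CPM in Hcrt neurons and 347, 566 and 699.8 CPM in neither wells. No Pmch plate reached down to the neither range, while Hcrt plates overlapped both. The change was 0.96 ± 0.11 in Pmch over neither wells, 0.40 ± 0.065 in Hcrt over neither wells and 0.61 ± 0.069 in Pmch over Hcrt neurons (adjusted p = 4.84e-09, 2.22e-06 and 2.42e-09). Hsp90b1, which encodes the ER Hsp90 GRP94, ran at 1241, 1644 and 2119.6 CPM, 1055, 1236 and 1483 CPM and 908, 1018 and 1299.7 CPM in Pmch, Hcrt and neither wells. The ranges overlapped, and Pmch exceeded both other classes on 13 of 13 plates. The changes were 0.66 ± 0.077, 0.30 ± 0.049 and 0.38 ± 0.054 in Pmch over neither, Hcrt over neither and Pmch over Hcrt (adjusted p = 1.19e-08, 2.97e-06 and 2.59e-07). Against the glutamate gate of the neither class, the Hcrt change was 0.32 for Hspa5 and 0.23 for Hsp90b1 (adjusted p = 0.291 and 0.226), and the Pmch change 0.75 and 0.54 (adjusted p = 0.0136 and 0.0255).

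Manf, a secreted chaperone-like factor that binds BiP, had the largest change of the tested chaperone members over neither wells in both peptide classes. It had 200.4, 354 and 572 CPM in Pmch neurons, 198, 256 and 313 CPM in Hcrt neurons and 83.0, 138 and 289.9 CPM in neither wells. Every Hcrt plate lay above the neither median, and the highest neither plate (6) still reached into the Hcrt range. It rose by 1.32 ± 0.16 in Pmch and 0.83 ± 0.1 in Hcrt over neither wells (adjusted p = 5.27e-08 and 2.05e-09) and by 0.56 ± 0.1 in Pmch over Hcrt neurons (adjusted p = 3.07e-05). It kept its call against both the glutamate gate (1.11 in Hcrt neurons, adjusted p = 0.000118) and the GABA gate (1.13, adjusted p = 2.81e-07).

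Of the J-domain cofactors of BiP, Dnajb9 and Dnajb11 were higher in Pmch neurons than in both other classes. Dnajb9 (ERdj4) had 111.3, 207 and 304 CPM in Pmch neurons, 70.0, 107.9 and 144 CPM in Hcrt neurons and 54.3, 84.4 and 157 CPM in neither wells, and every Pmch plate lay above the Hcrt median. It was higher in Pmch than in neither wells by 1.24 ± 0.19 and than in Hcrt neurons by 0.93 ± 0.13 (adjusted p = 2.71e-06 and 3.43e-07). Hcrt over neither wells narrowly missed the threshold, 0.28 ± 0.12 (adjusted p = 0.0507), and passed when any 1 of 6 plates (1, 3, 6, 10, 15 or 17) was left out, with adjusted p-values of 0.0277 to 0.04. Dnajb11 (ERdj3) ran at 124, 173.6 and 258 CPM, 79.9, 101.5 and 146 CPM and 71.2, 113.2 and 209 CPM in Pmch, Hcrt and neither wells. The Hcrt range lay within the neither range. Its Pmch changes were 0.65 ± 0.16 over neither wells and 0.82 ± 0.13 over Hcrt neurons (adjusted p = 0.00184 and 4.1e-06), with -0.12 ± 0.11 in Hcrt over neither wells (adjusted p = 0.405). Sdf2l1, which forms a complex with Dnajb11, was at 33.6, 69.8 and 102.2 CPM in Pmch neurons, 30.6, 39.7 and 71.2 CPM in Hcrt neurons and 14.9, 43.5 and 119.97 CPM in neither wells. The ranges overlapped, and it passed in Pmch over Hcrt neurons (0.79 ± 0.19, adjusted p = 0.00119) and not over neither wells (0.61 ± 0.25, adjusted p = 0.0583, and 0.0476 or 0.0195 without plate 1 or 6).

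Hyou1, a nucleotide exchange factor of BiP, and Dnajc3, a further J-domain cofactor, passed no test, with changes from -0.27 (Dnajc3 in Hcrt over neither wells) to 0.36 (Dnajc3 in Pmch over Hcrt neurons). Creld2, a gene induced by ER stress, was lower in Hcrt than in neither wells, with a change of -0.48 ± 0.19 (adjusted p = 0.0413) at class means of 35.4 ± 9.91 and 51.3 ± 25.7 CPM (SD, 17 plates). That call was fragile: it was lost without plate 5, 8, 10, 13, 15, 17 or 19 (adjusted p up to 0.133) and under 10 of 19 other alternatives, and in the neuron gate it was -0.38 (adjusted p = 0.0931).

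All 4 disulfide enzymes were higher in Pmch neurons than in both other classes, 3 of them were higher in Hcrt than in neither wells, and the 2 lectin chaperones passed no test. P4hb, the founding protein disulfide isomerase, had 274, 457 and 817 CPM in Pmch neurons, 236, 357 and 440.1 CPM in Hcrt neurons and 75.5, 203 and 653 CPM in neither wells. Its neither range was wide, with plate 19 at the top, and contained the Hcrt range. It was higher in Pmch and Hcrt than in neither wells by 1.15 ± 0.15 and 0.55 ± 0.16 (adjusted p = 1.5e-07 and 0.00791) and in Pmch than in Hcrt neurons by 0.49 ± 0.086 (adjusted p = 1.34e-05). The Hcrt call was lost with thinned wells (0.37, adjusted p = 0.0626) and with no plate block (0.43, adjusted p = 0.0529) as well as with the peptides in the totals (0.35, adjusted p = 0.0733). Pdia4, an isomerase induced by ER stress, ran at 88.9, 149 and 207 CPM, 69.3, 95.03 and 167 CPM and 21.7, 63.2 and 140.0 CPM in Pmch, Hcrt and neither wells. It was higher by 1.19 ± 0.21 in Pmch and 0.63 ± 0.14 in Hcrt over neither wells, and by 0.54 ± 0.14 in Pmch over Hcrt neurons (adjusted p = 3.14e-05, 0.000183 and 0.00194).

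Pdia6, the isomerase that works beside BiP, passed the test in both Pmch comparisons. It had 331, 498 and 788 CPM in Pmch neurons, 252, 288 and 383 CPM in Hcrt neurons and 128, 265 and 393 CPM in neither wells, and the Hcrt range lay within the neither range. The changes were 0.90 ± 0.13 and 0.81 ± 0.083 in Pmch over neither and over Hcrt wells (adjusted p = 6.18e-07 and 1.56e-10), and 0.15 ± 0.081 in Hcrt over neither wells (adjusted p = 0.143). Pdia3, which serves glycoproteins held by the lectins, had 63.5, 129 and 223 CPM, 63.5, 104.9 and 158 CPM and 43.4, 62.5 and 140.0 CPM in Pmch, Hcrt and neither wells, all overlapping. It was higher in Pmch and in Hcrt than in neither wells by 0.86 ± 0.2 and 0.58 ± 0.12 (adjusted p = 0.00106 and 0.000189). Over Hcrt neurons the Pmch change of 0.39 ± 0.14 (adjusted p = 0.0285) was lost without plate 5, 6, 11 or 18 (adjusted p up to 0.0807). The lectin chaperones Calr (calreticulin) and Canx (calnexin) changed by 0.092 to 0.26 over the 3 comparisons, and neither passed. Leaving out plate 5 for Calr in Pmch over neither wells, or plate 17 for Canx in Pmch over neither or over Hcrt wells, brought the adjusted p to 0.0431, 0.0253 and 0.0398. With TMM the Hcrt change over neither wells was 0.32 for Calr and 0.31 for Canx (adjusted p = 0.000139 and 9.34e-05), and the Pmch change of Calr was 0.32 (adjusted p = 0.022).

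The degradation genes held both directions. Sel1l (chromosome 12, 91806043 to 91849157), the adaptor of the ubiquitin ligase complex, was at 14.3, 45.6 and 161 CPM in Pmch neurons, 55.0, 85.1 and 103.1 CPM in Hcrt neurons and 77.0, 131 and 196 CPM in neither wells. Every Hcrt plate was under the neither median, and all ranges overlapped, with plate 17 the highest Pmch value. Sel1l was lower in Pmch and in Hcrt than in neither wells, -1.21 ± 0.23 and -0.54 ± 0.11 (adjusted p = 9.88e-05 and 0.000133), and lower in Pmch than in Hcrt neurons, -0.63 ± 0.21 (adjusted p = 0.0182). Against the glutamate gate its changes were -1.15 in Pmch (adjusted p = 0.154) and -0.19 in Hcrt neurons (adjusted p = 0.802). Syvn1, the ligase (HRD1) that Sel1l holds, changed by 0.35 ± 0.34, 0.0024 ± 0.21 and 0.33 ± 0.25 and passed no test.

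Derl1, a membrane protein of the retrotranslocation channel, had 80.4, 162 and 236 CPM in Pmch neurons, 82.6, 109.9 and 144 CPM in Hcrt neurons and 19.99, 64.8 and 146 CPM in neither wells. The highest neither plate (14) reached into the Pmch range. Derl1 was higher in Pmch and Hcrt than in neither wells by 1.09 ± 0.21 and 0.53 ± 0.13 (adjusted p = 8.1e-05 and 0.000982) and in Pmch than in Hcrt neurons by 0.44 ± 0.14 (adjusted p = 0.0154). Its relative Derl2 had 38.1, 61.9 and 116.3 CPM, 36.995, 49.3 and 69.5 CPM and 0, 33.9 and 64.7 CPM in Pmch, Hcrt and neither wells, overlapping throughout. Derl2 was higher in Pmch than in neither wells by 1.01 ± 0.36 (adjusted p = 0.0263), a call lost without plate 2, 6, 11 or 18 (adjusted p up to 0.0716). In Hcrt over neither wells it was higher by 0.61 ± 0.22 (adjusted p = 0.0194), lost without plate 14 or 18 (0.0573 and 0.0535). Herpud1, a scaffold induced by ER stress, was at 119.2, 167 and 301 CPM, 86.1, 109.6 and 130.1 CPM and 43.5, 103.003 and 190.5 CPM in Pmch, Hcrt and neither wells. Neither plates spread around the Hcrt range on both sides. It was higher in Pmch than in Hcrt neurons on 13 of 13 plates, by 0.70 ± 0.13 (adjusted p = 5.01e-05), and than in neither wells by 0.56 ± 0.21 (adjusted p = 0.0328), the last lost without plate 1, 2, 4, 13 or 19 (adjusted p up to 0.1). Edem1, a mannosidase-like lectin of the pathway, had plate medians of 9.17, 6.78 and 3.77 CPM in Pmch, Hcrt and neither wells and did not pass where it was tested.

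Of the response factors, Xbp1 (chromosome 11, 5520659 to 5525893), the transcription factor whose messenger RNA is spliced by IRE1, was the one that was higher in both peptide classes. It had 110.2, 272 and 380.4 CPM in Pmch neurons, 217, 272 and 325 CPM in Hcrt neurons and 60.0, 136 and 237 CPM in neither wells. Pmch and Hcrt plates had like medians, every Hcrt plate lay above the neither median, and the lowest Pmch plate (1) lay inside the neither range. Xbp1 rose by 0.89 ± 0.17 in Pmch and 0.92 ± 0.099 in Hcrt over neither wells (adjusted p = 0.0001 and 1.27e-10), on 12 of 13 plates and 17 of 17 plates. Pmch over Hcrt neurons gave -0.14 ± 0.11, a difference that did not pass (adjusted p = 0.359). Both Xbp1 calls also held against the glutamate gate (0.93 in Pmch, adjusted p = 0.045, and 0.70 in Hcrt neurons, adjusted p = 0.0152). The counts are per gene, so spliced and unspliced Xbp1 were not separated.

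Atf4, the transcription factor downstream of PERK, ran at 50.8, 108.2 and 285 CPM in Pmch neurons, 98.4, 118.3 and 148 CPM in Hcrt neurons and 32.6, 106.1 and 229.9 CPM in neither wells. The 3 ranges overlapped widely. Its changes were 0.17 ± 0.24 in Pmch over neither, 0.20 ± 0.13 in Hcrt over neither and 0.052 ± 0.16 in Pmch over Hcrt wells (adjusted p = 0.625, 0.209 and 0.84). Ddit3, which encodes the stress factor CHOP, had 11.2, 35.7 and 91.3 CPM, 22.3, 42.7 and 70.0 CPM and 10.9, 39.2 and 87.1 CPM in Pmch, Hcrt and neither wells. It too overlapped throughout, with changes of -0.19 ± 0.33, 0.045 ± 0.19 and -0.12 ± 0.25 in the same order (adjusted p = 0.687, 0.877 and 0.768). The 3 sensors were low. Atf6 had 0, 14.3 and 31.3 CPM in Pmch neurons, 3.37, 9.51 and 17.3 CPM in Hcrt neurons and 0, 15.1 and 62.5 CPM in neither wells. It was lower in Hcrt than in neither wells, with a change of -0.82 ± 0.34 (adjusted p = 0.0487), a call lost without any 1 of 11 plates (1, 2, 3, 4, 8, 10, 11, 12, 15, 17 or 19), with adjusted p-values up to 0.115. Ern1, which encodes IRE1, had 0, 4.23 and 21.4 CPM, 0, 4.54 and 10.1 CPM and 0, 2.18 and 43.5 CPM in Pmch, Hcrt and neither wells. Eif2ak3, which encodes PERK, had 0, 2.53 and 18.3 CPM, 1.03, 5.29 and 9.08 CPM and 0, 6.75 and 78.3 CPM. A UMI of Ern1 was seen in 9.86% and of Eif2ak3 in 10.6% of Hcrt neurons. Eif2ak3 could be tested in Hcrt over neither wells with gates at 0.2%, where its change of -0.77 did not pass (adjusted p = 0.352).

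The calls were also counted by the promoter element printed above, as a description. In Pmch over neither, Hcrt over neither and Pmch over Hcrt wells, 14.3%, 13.3% and 14.3% of all genes were higher. In the same order, 19.5%, 27.9% and 16% of all genes were lower. Of the 8 members with ERSE in the window, 3 were higher in Pmch than in neither wells (Hspa5, Hsp90b1 and Pdia6), against 13 higher and 1 lower of 18 tested members with a window but no ERSE; Dnajb11 and Herpud1, which hold ERSE-II, are counted in the second set and among its higher members. In Hcrt over neither wells the counts were 2 higher and 1 lower of 8, against 9 higher and 1 lower of 20. In Pmch over Hcrt neurons they were 3 higher of 8, against 11 higher and 1 lower of 19. Of the members with ERSE, Hspa5, Hsp90b1 and Pdia6 were higher in both Pmch comparisons. In Hcrt over neither wells, Hspa5 and Hsp90b1 were higher and Creld2 lower. Calr, Canx, Dnajc3 and Syvn1 passed no test in the scaling used here, though Calr and Canx did with TMM and DESeq2 in Hcrt over neither wells. Of the members with a window but no ERSE, Ssr4, Sec61b and Xbp1 moved, while Atf4 and Ddit3 passed no test. Whether the element bears on these levels was not tested.

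Neighbouring steps of the pathway were counted from further lists. In Pmch over neither, Hcrt over neither and Pmch over Hcrt wells, 14.3%, 13.3% and 14.3% of all genes were higher. In the same order, 19.5%, 27.9% and 16% of all genes were lower. Whether a list differed from these shares was not tested. Of 12 genes of the oligosaccharyltransferase, which adds sugar chains to entering proteins, 9 of 10 tested were higher in Pmch than in neither wells, 8 of 12 were higher and 1 lower in Hcrt than in neither wells, and 10 of 12 were higher in Pmch than in Hcrt neurons. Its subunit Rpn2 averaged 676 ± 139 CPM in Pmch neurons and 184 ± 46.4 CPM in neither wells (SD, 13 plates), a change of 1.85 ± 0.12 (adjusted p = 1.46e-14). Tusc3, another subunit, averaged 381 ± 41.3 CPM in Hcrt and 214 ± 40.1 CPM in neither wells (SD, 17 plates; 0.87 ± 0.079, adjusted p = 6.45e-13). Among 31 other folding genes, 12 of 19 tested were higher in Pmch than in neither wells, 9 of 27 were higher and 2 lower in Hcrt than in neither wells, and 8 of 26 were higher and 1 lower in Pmch than in Hcrt neurons. The ER prolyl isomerase gene Fkbp11 was among those, at 215 ± 102.4 CPM in Pmch and 17.1 ± 5.15 CPM in Hcrt neurons (SD, 13 plates; 3.596 ± 0.21, adjusted p = 1.34e-17). Sil1, an exchange factor of BiP, averaged 137 ± 18.6 CPM in Hcrt and 56.5 ± 20.7 CPM in neither wells (SD, 17 plates; 1.30 ± 0.12, adjusted p = 3.6e-12).

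Further lists covered stress signalling and traffic. The shares of all genes were again 14.3%, 13.3% and 14.3% higher in Pmch over neither, Hcrt over neither and Pmch over Hcrt wells. The lower shares were 19.5%, 27.9% and 16% in that order. Some lists lay near these shares, and no list was tested against them. Of 24 genes of the integrated stress response, 2 of 6 tested were higher in Pmch than in neither wells, 4 of 13 were higher and 3 lower in Hcrt than in neither wells, and 1 of 10 was lower in Pmch than in Hcrt neurons. Of 12 other factors of the unfolded protein response, 3 of 4 tested were higher in Pmch than in neither wells, 3 of 9 were higher and 2 lower in Hcrt than in neither wells, and 3 of 6 were higher and 1 lower in Pmch than in Hcrt neurons. Creb3l1, an ER-bound relative of ATF6, averaged 58.4 ± 12.8 CPM in Hcrt and 3.63 ± 5.13 CPM in neither wells (SD, 17 plates; 3.92 ± 0.31, adjusted p = 8.39e-15) and was lower in Pmch than in Hcrt neurons, with a change of -1.79 ± 0.29 (adjusted p = 2.7e-06). Wfs1, an ER membrane protein gene, averaged 128 ± 44.7 CPM in Pmch and 43.9 ± 20.6 CPM in neither wells (SD, 13 plates; 1.47 ± 0.26, adjusted p = 3.53e-05). Chaperones of the cytosol and mitochondria were 3 higher and 6 lower of 23 tested in Pmch over neither wells, 8 higher and 2 lower of 24 in Hcrt over neither wells and 3 higher and 7 lower of 23 in Pmch over Hcrt neurons. ER to Golgi traffic genes were 9 higher and 1 lower of 19, 6 and 2 of 24, and 5 and 2 of 24 in the same order. Other ER degradation genes were 5 higher and 0 lower of 15, 7 and 2 of 20, and 4 and 2 of 19, and other targeting and translocation genes were 4 and 1 of 13, 4 and 2 of 15, and 4 and 1 of 15.

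Within Hcrt neurons, the question was whether these genes move with the amount of Hcrt message in the cell. On each of 19 plates the Hcrt neurons were split by Hcrt share into a high-share and a low-share group of equal size (528 wells each), which averaged 15.3 ± 2.06% and 11.6 ± 1.72% Hcrt (SD, n = 19 plates). Members summed to 7464 ± 259 CPM in the high-share and 7399.8 ± 281 CPM in the low-share group (SD, 19 plates). Of 34 tested members, 1 was higher (2.94%), where 0.563% of all 8702 genes were, and 1 was lower (2.94%), where 1.09% of all genes were. The median member change was -0.0011, against -0.038 for all genes. Manf was the higher one, with lowest, median and highest plate values of 214, 269 and 331 CPM in the high-share and 154, 222 and 339.9 CPM in the low-share group. The groups overlapped, and the high-share group was above the low one on 16 of 19 plates, with a change of 0.23 ± 0.059 (adjusted p = 0.0357). That call was lost without any 1 of 12 plates, with adjusted p-values up to 0.079, and in groups paired on depth it was 0.16 (adjusted p = 0.225). It was also lost with thinned wells (adjusted p = 0.0584), with the peptides in the totals (adjusted p = 0.105) and with no plate block (adjusted p = 0.291). The share of higher genes among all calls was 34% here, 72.1% with TMM, 67.9% with DESeq2 and 3.94% with the peptides in the totals.

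Ssr2 was the lower one. It had 143, 176 and 223 CPM in the high-share and 159.7, 209 and 303 CPM in the low-share group. These overlapped as well, and the high-share group was below the low one on 17 of 19 plates, with -0.27 ± 0.055 (adjusted p = 0.00397). The call was lost after thinning (adjusted p = 0.0881), with no plate block (adjusted p = 0.0524) and in groups paired on depth (-0.18, adjusted p = 0.232). The Ssr4 to Ssr2 ratio averaged 3.41 ± 0.585 in the high-share and 2.74 ± 0.63 in the low-share group and was higher in the high-share group on 17 of 19 plates. This ratio contains Ssr2 and is no separate support for the Ssr2 difference. Sec61b had 145, 178 and 257 CPM in the high-share and 96.2, 162 and 289 CPM in the low-share group, and its change of 0.20 ± 0.064 did not pass (adjusted p = 0.0936), but did with thinned wells (0.30, adjusted p = 0.0365), TMM (adjusted p = 0.0285), DESeq2 (adjusted p = 0.0154) and outer groups of 3 (0.38, adjusted p = 0.0092). In groups paired on depth Ssr4 was higher (0.15, adjusted p = 0.0338). Hspa5 and Xbp1, which were higher in Hcrt than in neither wells, changed by 0.047 ± 0.037 and 0.073 ± 0.05 between the groups (adjusted p = 0.655 and 0.579).

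**Figure D3:**
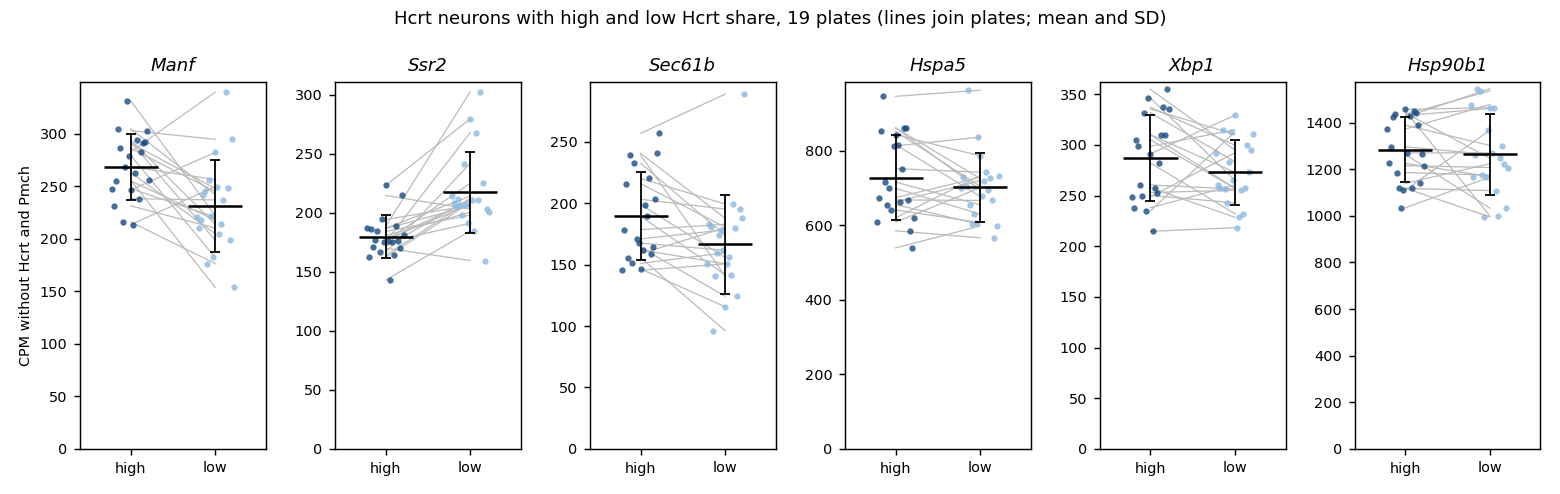
CPM of members in the high-share and low-share groups of Hcrt neurons, 1 line per plate (19 plates). Manf is above its low-share value on 16 plates and Ssr2 is above it on 2.

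Other measures moved between the groups too. As plate means of well medians, ribosomal protein genes had 34439 CPM in the high-share and 31622 CPM in the low-share group (higher on 18 of 19 plates), immediate early genes 781 and 575 CPM (14 of 19), and non-neuronal marker genes 54.3 and 76.2 CPM (3 of 19). The 8 oligodendrocyte markers had 3 tested genes, whose means over plates of summed counts added up to 77.9 CPM in the high-share and 613 CPM in the low-share group. With wells that failed a neuron gate left out, Manf and Ssr2 remained the called members. The part of the other measures in these results was not tested.

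**Figure D4:**
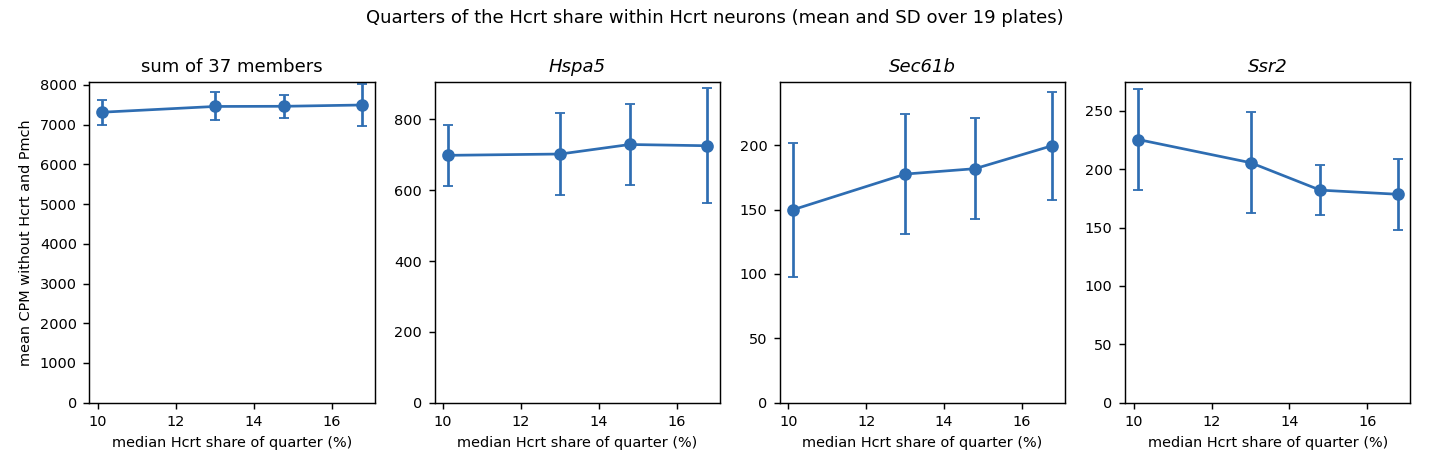
Mean CPM with SD over 19 plates (vertical axis) in 4 bins of Hcrt neurons by Hcrt share within a plate (horizontal axis, low to high). The panels show the sum of the 37 genes, Hspa5, Sec61b and Ssr2; the sum stays between 7314 and 7495 CPM, Sec61b is highest and Ssr2 lowest in the top bin.

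In finer steps, 4 bins of Hcrt neurons with median shares of 10.1, 13.01, 14.8 and 16.8% had summed member levels of 7314 ± 318, 7459 ± 353, 7463 ± 297 and 7495 ± 519 CPM (SD, 19 plates). The mean summed level rose at each step. The SDs are between plates while the bins lie within plates, so they do not measure this rise, which was not tested. Manf averaged 213 ± 52.2, 250.1 ± 42.6, 265 ± 42.1 and 275 ± 47.9 CPM from the lowest to the highest bin, and Sec61b 149.8 ± 52.0, 178 ± 46.3, 182 ± 39.4 and 199.6 ± 42.0 CPM. Ssr2 ran the other way, at 225 ± 43.0, 206 ± 43.2, 182 ± 21.3 and 179 ± 30.6 CPM. As a description over cells of a plate, which share library and depth, the median rank correlation with Hcrt share was 0.187 for Sec61b (positive on 19 of 19 plates), 0.134 for Ssr4 (15 of 19), 0.118 for Manf (15 of 19) and -0.108 for Ssr2 (5 of 19). Over 10006 genes, the range from the 5th to the 95th percentile of this measure was -0.089 to 0.081. Dnajb9 (0.091), Spcs2 (0.091) and Derl1 (0.087) also lay above it. With wells thinned to equal depth the range was -0.091 to 0.074. Sec61b (0.132), Ssr4 (0.144), Manf (0.118), Pdia6 (0.084), Derl1 (0.080) and Hsp90b1 (0.075) then lay above it, and Ssr2 (-0.136) and Calr (-0.093) below it. Genes closest to Hspa5 over Hcrt neurons thinned to equal depth were led by Tusc3 (0.178), and 2 members were among the top 8 of 10042 genes, Creld2 (0.167) and Sec61b (0.153), all weak correlations.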

How the data were processed

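The authors deposited 1 table of UMI counts per gene and well, from Smart-SCRB libraries of single cells, with per-well annotation that holds genes detected and the ERCC spike-in percent of each well. Per the submitters' processing notes, bcl2fastq 2.20, cutadapt 2.1.0, STAR and STARsolo 2.7.5c on GRCm38, Seurat 2.3.4 and R 3.4.3 were used; the annotation release, strand setting and UMI collapsing are not given in the sources used here. The 103 rows that are not mouse genes were left out.

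Counts were summed per plate and class (at least 3 wells) and tested with edgeR 4.0.16 (quasi-likelihood, robust, filterByExpr, plate block, totals without Hcrt and Pmch, two-sided, adjusted p threshold 0.05) in R 4.3.3. Plates are numbered in accession order. Plate is the block because the classes come from the same plates. DESeq2 1.42.0 and limma 3.58.1 (log2 of CPM plus a pseudocount of 10) were alternatives, and other steps used Python 3.11.15 with pandas 2.3.3 and scipy 1.17.1. The fit was tested on simulated data. The members and gene lists were chosen with earlier results of these data known. Per-plate values are given for called members with the largest changes, up to 12 a comparison, and for the main chaperone and response genes. The annotation table's gene coordinates are those of GRCm38.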

Additional observations from a re-analysis of the deposited data

Results flagged for a closer look

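Ssr2 differed between the 2 peptide classes relative to the same neither wells: it was higher in Pmch and lower in Hcrt neurons. The direct test of Pmch over Hcrt neurons gave a log2 change of 1.29 (edgeR, adjusted p = 1.32e-13, higher on 13 of 13 plates). The Hcrt side depended on the neither wells taken, as given above.

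Wells outside the comparisons also held counts of the 37 genes. In the wells labelled as holding no cell, the genes summed to 821 UMIs, of which 717 were in a single well; 53 of these wells had at least 1 such UMI and the median was 1, against a median of 246 in kept cell wells. In 68 wells labelled qRNA, they summed to 14368 UMIs, with a median of 191. That was 11139 CPM of the mouse-gene counts other than Hcrt and Pmch in those wells, against 7363 CPM in kept cell wells.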

How the results depend on the processing

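Members higher and lower were 20 and 1 in Pmch over neither, 13 and 4 in Hcrt over neither, 18 and 1 in Pmch over Hcrt, and 1 and 1 in the high-share over the low-share group of Hcrt neurons. In Hcrt over neither wells the higher count was 23 with TMM, 23 with DESeq2, 25 with limma, 8 with totals that keep the peptides and 7 with the glutamate gate. Of all genes, 22.5%, 21.1%, 31.1%, 8.43% and 6.01% were higher in the same order, against 13.3% in the scaling used here. The lower count of members was 2 with TMM, no filter, DESeq2, the neuron gate, wells nearer to qRNA left out and the GABA gate. It was 1 with limma, gates at 0.2% and neither wells under 0.2%, 8 with totals that keep the peptides and 0 with the glutamate gate. Of all genes, 8.32% to 28.2% were lower where 2 members were, and 11.8% to 18.6% where 1 was. With totals that keep the peptides 44.5% of all genes were lower, and with the glutamate gate 4.51%. In Pmch over neither wells the lower count was 2 with totals that keep the peptides (38.5% of all genes). It was 0 with thinned wells, gates at 0.2%, neither wells under 0.2% and the glutamate gate (3.74% to 16.1% of all genes). In Pmch over Hcrt the lower count was 0 with limma and with at least 5 wells (10.5% and 10.6% of all genes). Between the high-share and low-share groups the higher count was 2 with TMM, DESeq2, limma and the outer groups of 3 (1% to 1.97% of all genes). It was 0 with totals that keep the peptides (0.229% of all genes). The lower count was 2 with totals that keep the peptides (5.57%) and 0 with thinned wells and groups paired on depth (0.945% and 0.139%). The cause was not tested.

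The plate is the replicate block. With no replicate block, the counts were 20 and 1, 12 and 4, 18 and 1, and 0 and 0 in the order above. Of all genes, 14.4% and 17.8%, 12.2% and 32.7%, 17.9% and 15.7%, and 0.0804% and 0.218% were then higher and lower. Leaving out 1 plate at a time gave 18 to 21 higher and 1 to 1 lower in Pmch over neither, 12 to 15 and 2 to 4 in Hcrt over neither, 17 to 19 and 1 to 1 in Pmch over Hcrt, and 0 to 2 and 1 to 1 between these groups. Sign changes were listed only where the member passed in the scaling used here or in the alternative. Such signs turned for Ssr2 (0.18, glutamate gate), Creld2 (0.042, glutamate gate), Spcs1 (-0.17, totals that keep the peptides) and Dnajb11 (0.48, limma) in Hcrt over neither wells, and for Spcs1 (-0.27, totals that keep the peptides) in Pmch over neither wells. Members that passed in neither setting also changed sign in places. Calls unchanged under every alternative and left-out plate in which the gene was tested were 13 of 21, 5 of 17, 14 of 19 and 0 of 2. All-gene counts ranged from 282 to 1982 higher and 136 to 2300 lower in Pmch over neither, 447 to 3010 and 336 to 4299 in Hcrt over neither, 719 to 2041 and 628 to 1726 in Pmch over Hcrt, and 7 to 171 and 12 to 487 between these groups.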
